A study of Mus musculus with 3 samples.

Results

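The genes described here encode SR proteins, hnRNPs and the core factors U2AF, SF3A and SF3B, which act on pre-messenger RNA during splicing. Members were all protein-coding genes whose symbol matched Srsf and a number, Tra2a or Tra2b, Hnrnp and any suffix, U2af and any suffix, or Sf3a or Sf3b and a number. This rule used names only and found 45 of 55536 annotated genes, made up of 13 SR genes, 20 hnRNP genes, 3 U2AF genes and 9 SF3 genes. RNA left after ribosomal RNA depletion was sequenced from the cytosolic fraction of macrophages that had been grown from the bone marrow of C57BL/6J mice. All cells of the single group had received Lipid A, the part of bacterial lipopolysaccharide that Tlr4 detects, at 100 ng/ml for 12 h, followed by 12 h without it. They were taken at 0 min of a second dose of 100 ng/ml. The group holds 3 libraries, which the labels number as biological replicates 1, 2 and 3 under the same donor identifier. Whether they came from separate animals is not stated, so their spread may be technical. Neither untreated nor restimulated cells were analysed here, so no effect of Lipid A can be read from the values given.

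SR proteins bind exonic enhancers through RNA recognition motifs and recruit the splicing machinery through domains rich in arginine and serine, while hnRNPs coat nascent transcripts and often block splice sites. U2AF recognises the end of an intron, and SF3A and SF3B are parts of the U2 small nuclear ribonucleoprotein that selects the branch point. Many of these genes are known to tune their own amount by splicing in an exon with an early stop codon or by keeping an intron, and transcripts with an early stop are usually destroyed in the cytosol by nonsense-mediated decay. For that reason the annotated transcripts of each gene were followed by their biotype, which is the annotation's own class.

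Gene rows of the 3 libraries held 28981178, 53119941 and 46783133 expected counts in replicates 1, 2 and 3. All 8 macrophage markers stood at 1 TPM or more in every library, with means of 42.4 to 3326 TPM, whereas none of the 3 B cell, 3 T and NK cell, 3 stromal or 3 erythroid markers did, whose sums stayed at 0.07 TPM or less. Of 5 neutrophil markers 2 did, with a sum of 4.76, 8.55 and 9.36 TPM over the list. TPM is a transcript's abundance relative to its length and to the total of the library. Protein-coding genes took between 27.2% and 31.6% of all TPM. Of 9 RNAs known to stay in the nucleus, 6 were called by the chi-square test described for the members, against 16.2% of all genes tested. These 6 were highest in replicate 3, with Malat1 at 158, 91.1 and 1343 TPM and Neat1 at 16.8, 10.4 and 91.4 TPM in replicates 1, 2 and 3. Xist held 0.61, 0.50 and 25.9 TPM, and Firre, Airn and Kcnq1ot1 were the others. Of the rest, Rn7sk was by far the most abundant RNA of the list in every library, at 51090, 27750 and 61250 TPM. It was not called, with a ratio of 1.68 between libraries. Meg3 and Tsix were listed at 0 and were not tested. Replicate 3 also had the highest retained-intron share of the members, and a link with these RNAs was not tested.

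Nearly the whole splicing factor set was present in the cytosolic RNA, led by hnRNPs. Of the 45 members, 44 reached 1 TPM in every library, against 41.3% of all 21951 protein-coding genes, and 35 members reached 10 TPM. The median member stood at 20.8, 18.04 and 22.8 TPM, with a mean of 20.5 ± 2.37 (SD, n = 3), and the median of all protein-coding genes at 0.130, 0.140 and 0.220 TPM. By class, the median was 37.9 ± 4.55 TPM for hnRNPs, 18.6 ± 1.83 for U2AF, 17.6 ± 4.10 for SR genes and 13.4 ± 1.22 for SF3 genes. A low level in bulk RNA can mean fewer cells with the transcript or less RNA in each, and these cannot be told apart. Summed TPM of the members was 0.434%, 0.474% and 0.524% of protein-coding TPM.

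Among hnRNPs Hnrnpf, which binds runs of guanine, had the highest mean in the alignment-derived table, at 111, 105 and 114 TPM. Hnrnpa2b1, an RNA-binding protein that also sorts RNA for transport, held 100.3, 94.4 and 132 TPM. Its close relative Hnrnpa3 held 85.6, 90.1 and 100.2 TPM. Hnrnpf and Hnrnpa2b1 each lay above Hnrnpa3 in every library, while Hnrnpa2b1 was above Hnrnpf in replicate 3 only. The range of Hnrnpa2b1 over the libraries overlapped both of the others. In the read-derived table Hnrnpk, with 53.0, 56.2 and 38.6 TPM, was above Hnrnpf, with 54.6, 49.2 and 33.3 TPM, in 2 of 3 libraries, so the first place depended on the quantification. Hnrnpk, Hnrnpl, Hnrnpu and Hnrnpab followed with means of 90.8 ± 7.76, 88.4 ± 22.0, 79.7 ± 11.3 and 74.7 ± 8.04 TPM, after which a step separated them from Hnrnpc at 41.5 ± 3.96 TPM. The 10 hnRNPs that came next had means from 41.02 TPM for Hnrnpd to 9.71 TPM for Hnrnpr. At the low end stood Hnrnpll, a regulator of CD45 splicing in lymphocytes, with 4.45, 5.07 and 6.57 TPM. Hnrnph3 held 2.47, 2.37 and 4.30 TPM and was the lowest hnRNP in each library.

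Srsf2, the factor also called SC35, was the most abundant SR gene with 41.1, 48.3 and 60.1 TPM. Srsf5 held 33.1, 26.5 and 56.9 TPM, and Srsf9 held 24.6, 24.2 and 29.6 TPM. Srsf2 was above Srsf5, and Srsf5 above Srsf9, in every library, although the ranges of Srsf5 and Srsf9 over the libraries overlapped. Srsf1, the founding member of the family, had a mean of 25.8 ± 4.40 TPM and could not be placed above or below Srsf9. Between them and the lowest lay 7 SR genes, from Srsf3 at 19.98 TPM to Tra2a at 9.43 TPM. The lowest expressed SR gene was Srsf4 with 8.21, 7.62 and 10.6 TPM. Srsf12 had 0 expected counts in all 3 libraries, which allows up to 0.104, 0.0565 and 0.0641 CPM (counts scaled to a common total), from 3 counts of each library's total.

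Among the core factors, Sf3b2 held 39.4, 36.8 and 54.1 TPM. Sf3b1, the largest SF3B subunit and the one that binds at the branch point, held 22.9, 17.8 and 31.3 TPM. Sf3b6, which contacts the branch point adenosine, held 21.8, 18.04 and 17.6 TPM. Sf3b2 was above both in every library, whereas Sf3b1 and Sf3b6 changed places between libraries. Sf3b4, Sf3a3, Sf3a2 and Sf3b3 had means from 15.9 down to 11.6 TPM. Sf3a1, which stabilises the U2 particle with Sf3a2 and Sf3a3, was low, at 7.99, 7.16 and 9.04 TPM. Sf3b5, a small SF3B subunit, was lowest at 2.95, 2.79 and 2.99 TPM, so subunits of a single complex differed by more than 10 TPM in steady-state RNA. Of the U2AF genes, U2af2, the large subunit that reads the polypyrimidine tract, held 23.9, 26.5 and 36.7 TPM. U2af1, the small subunit that reads the AG at the intron end, held 16.3, 16.7 and 20.3 TPM, and its paralog U2af1l4 held 18.9, 15.2 and 16.6 TPM.

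**Figure D1:**
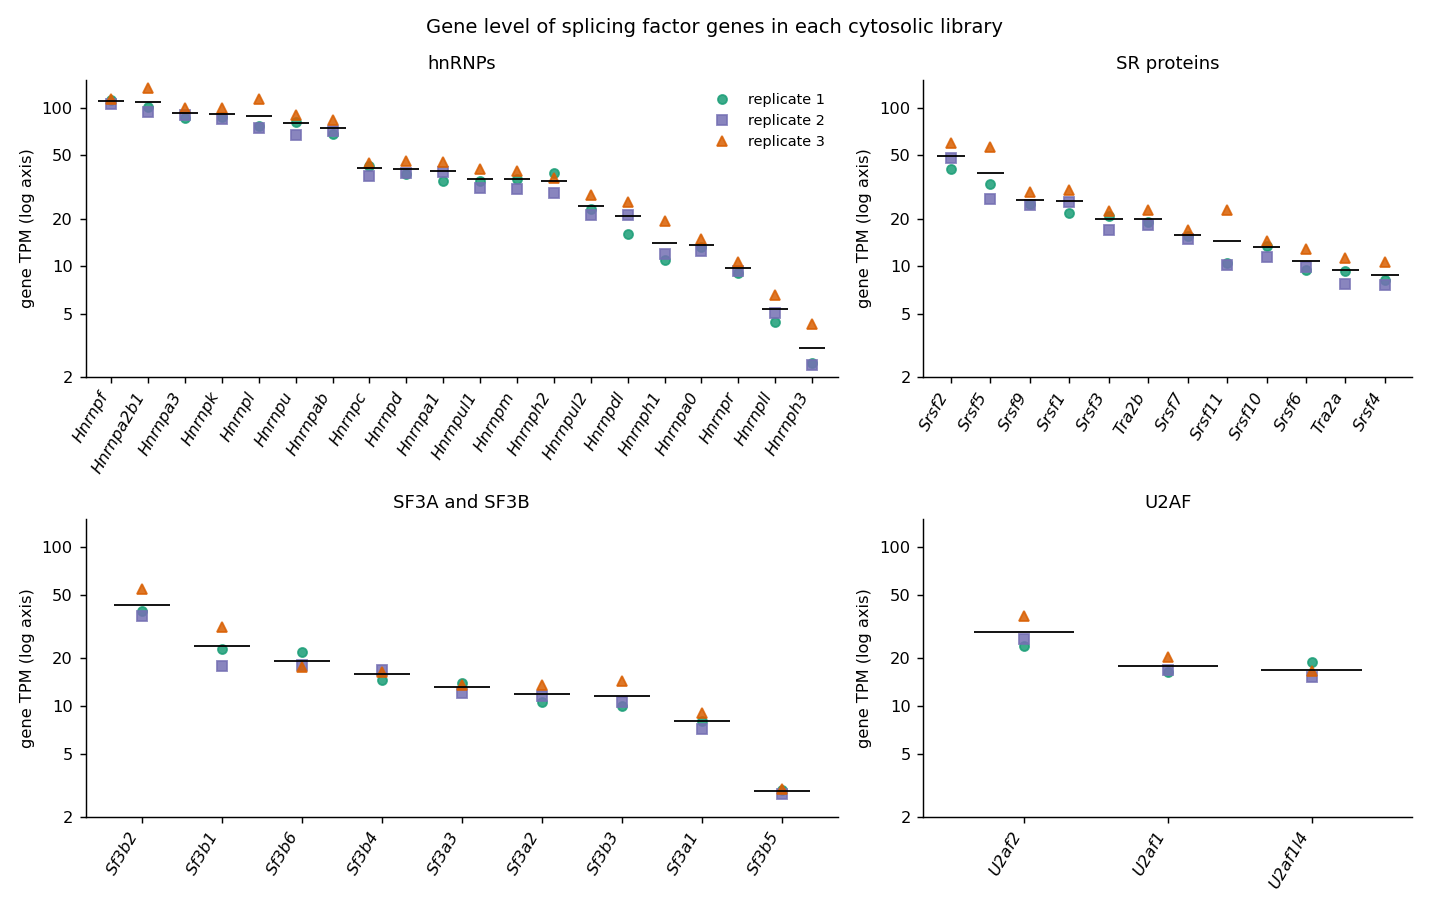
Gene TPM (log axis) of the 44 detected members in each library by class, with a symbol for each replicate and a line at the mean. Hnrnpf and Hnrnpa2b1 lead at 110 and 109 TPM, Sf3b5 and Hnrnph3 are lowest at 2.91 and 3.05 TPM, and replicate 3 gives the highest TPM for 39 members.

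Between libraries these genes differed by less than 2-fold in scaled counts. The rounded expected counts of each gene, scaled by TMM in edgeR, were compared by a chi-square test of homogeneity, and a gene was called at an adjusted p (Benjamini-Hochberg over 13636 genes) under 0.05 with its highest library at 2 or more times its lowest. None of the 44 members tested was called (0 of 44), against 16.2% of all genes tested and 8.09% of protein-coding genes tested. With DESeq2 size factors the count was also 0. With no demand on the ratio, 37 of 44 members differed at an adjusted p under 0.05, against 75.6% of all genes tested and 75.9% of protein-coding genes tested, and 37 differed at an unadjusted p under 0.05. The members' share is near the background. The median ratio was 1.17 for members and 1.27 for protein-coding genes. Although TPM was highest in replicate 3 for 39 of 44 members, the scaled counts were highest in replicate 3 for 15, in replicate 2 for 18 and in replicate 1 for 11, so the order of the libraries depended on the scale.

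Srsf5 came nearest to the threshold. Its scaled counts were 65.9, 55.6 and 108.9 CPM in replicates 1, 2 and 3, a ratio of 1.96 (chi-square test, adjusted p = 6.4e-215). Replicate 3 was the high library. Hnrnph1, a partner of Hnrnpf in binding guanine runs, followed with a ratio of 1.49, then Srsf2 with 1.47 and Srsf11 with 1.43, all highest in replicate 3. With only the totals as scaling, or when protein-coding genes alone were scaled and tested, Srsf5 passed a ratio of 2 and 1 member was called. These p-values cover counting error in these libraries and not variation between cultures.

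Transcripts annotated for nonsense-mediated decay made up a large part of the RNA of several members. The members carry 388 annotated transcripts, of which 170 are protein_coding, 121 retained_intron, 52 nonsense_mediated_decay and 45 processed_transcript. In replicates 1, 2 and 3, decay transcripts held 10.7%, 11.5% and 10.04% of the members' transcript TPM, against 1.60%, 1.71% and 1.69% over all protein-coding genes. In TPM this was 144, 148 and 166 for the members. The SR genes held 13.1%, 15.4% and 9.69%, the hnRNPs 12.1%, 12.7% and 12.0%, the U2AF genes 4.59%, 2.41% and 4.13%, and the SF3 genes 0.854%, 0.900% and 0.990%. The libraries were close for hnRNPs, and replicate 3 was lowest for SR genes. On expected counts, which are not divided by length, the SR genes held 5.66%, 6.32% and 4.57% and the hnRNPs 12.7%, 12.7% and 12.5%, so the SR share depended on the unit and the hnRNPs were then above the SR genes in every library. A few genes carried the sum: without Hnrnpu the share was 6.68% ± 0.731, and without Hnrnpu and Srsf2 it was 5.25% ± 0.389 (SD, n = 3), while the median member at 5 TPM or more had a share of 0.436%.

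Of the 42 members with a mean of 5 TPM or more, 9 had a decay share of 10% or more, against 7.37% of such protein-coding genes. Of the 24 such members with an annotated decay transcript the same 9 passed, against 23.8% of protein-coding genes that have one, so part of the difference from all genes lies in how often the annotation holds a decay transcript. The 9 were Srsf2, Srsf3, Srsf4 and Srsf6 among 12 SR genes and Hnrnpa1, Hnrnpd, Hnrnpdl, Hnrnpll and Hnrnpu among 19 hnRNPs, and none of the 3 U2AF or 8 SF3 genes passed.

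Hnrnpu (chr1:178321108-178337797, minus strand, mm10), which encodes the scaffold attachment factor A, had the highest share, at 81.0%, 82.9% and 75.2%. Nearly all of it was transcript Hnrnpu-206, with 65.4, 56.0 and 67.8 TPM, while the principal coding transcript Hnrnpu-201 had 14.6, 11.2 and 15.1 TPM. The decay transcript was above the coding one in each library, and the deposited intervals of the 2 transcripts did not meet. Hnrnpu-206 carries the annotation's readthrough tag and codes for 793 residues, against 800 in Hnrnpu-201. It shares 2577 of its 2844 bases with Hnrnpu-201 and 12 exons are identical, so 267 bases are not shared with the coding transcript. Of short sequence stretches in Hnrnpu transcripts, 6.40% also occur in transcripts of the protein-coding gene Cox20. Cox20 held 23.1, 19.3 and 19.1 TPM in replicates 1, 2 and 3. Whether reads of Cox20 were assigned to Hnrnpu-206 was not tested. Hnrnpu-201 has a last exon of 5065 bases, 66.3% of its length. On expected counts, which do not divide by length, the share of Hnrnpu-206 was 60.8%, 63.7% and 59.1%. Which 3′ end the reads came from cannot be read from these tables.

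Hnrnpdl, a relative of Hnrnpd, had decay shares of 55.1%, 58.0% and 42.1%, split between Hnrnpdl-201 at 33.2% ± 10.9 and Hnrnpdl-205 at 18.5% ± 3.72 (SD, n = 3). Srsf2 had 47.7%, 53.9% and 30.9%, all from Srsf2-204 at 19.6, 26.0 and 18.6 TPM. For both genes replicate 3 was the low library. Srsf2-204 has only 620 bases, so its share depends on the unit. Without Srsf2 the members' decay share was 9.57%, 9.83% and 9.25% in TPM, against 10.7%, 11.5% and 10.04% with it. On expected counts it was 9.24%, 9.24% and 8.85% without Srsf2, against 9.38%, 9.50% and 8.885% with it. Hnrnpa1 had 41.1%, 40.4% and 45.5%, mainly from Hnrnpa1-203 with a share of 39.8% ± 0.532. Hnrnpd, also called AUF1, which binds AU-rich elements, had 28.2%, 36.2% and 38.3%. Hnrnpll had 27.0%, 21.3% and 28.9%, with the 3 libraries close together.

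**Figure D2:**
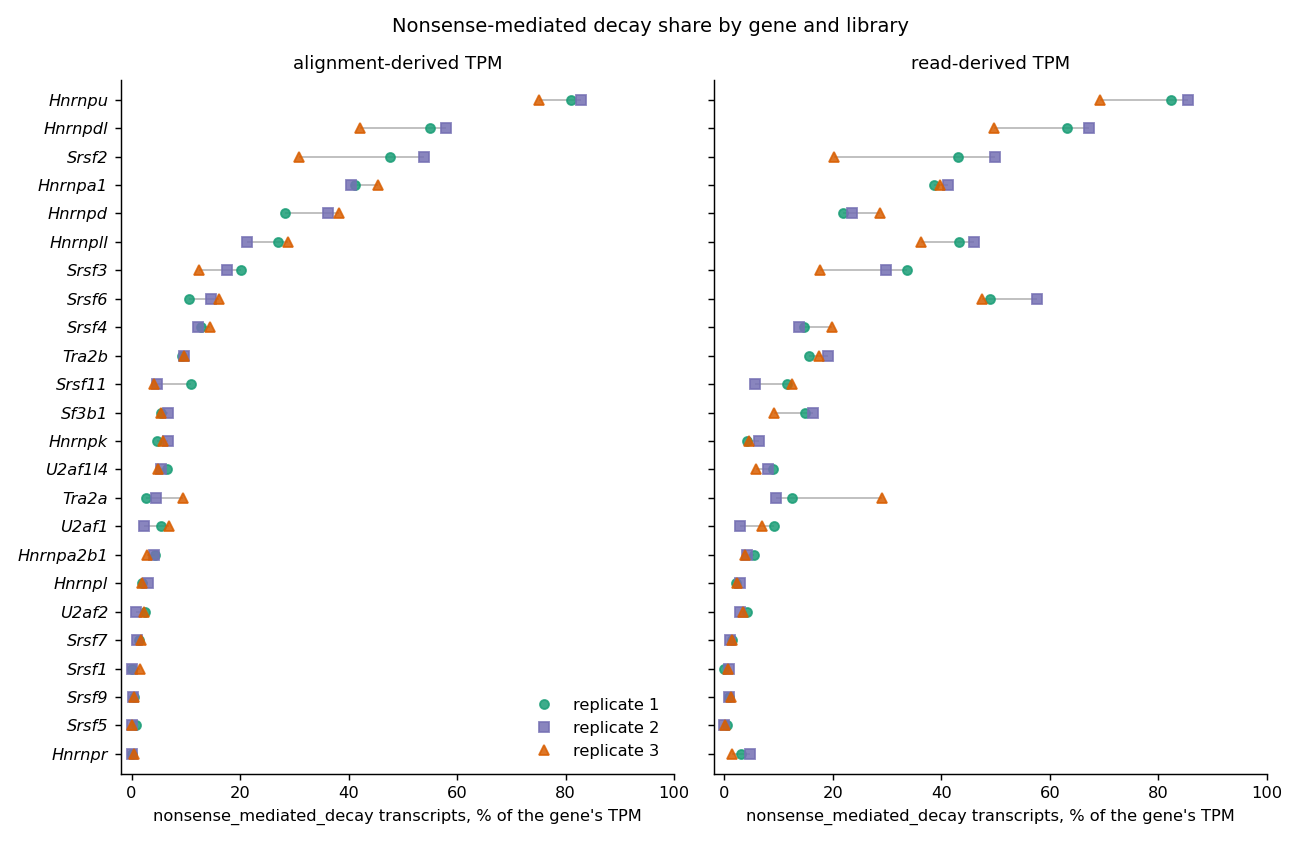
Share of a gene's TPM held by nonsense_mediated_decay transcripts, in percent, for the 24 members with such a transcript and a mean of 5 TPM or more, with 1 symbol a library; left, alignment-derived TPM, and right, read-derived TPM. Hnrnpu lies at 75.2% to 82.9% on the left, and Srsf6 moves from 10.6% to 16.1% on the left to 47.6% to 57.7% on the right.

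The decay transcripts fell into 2 kinds by where their stop codon lies. In the first, the stop is that of the principal transcript and an intron lies downstream of it in the 3′ untranslated region. This held for 10 transcripts of 5 genes, which had 55.4, 67.6 and 65.7 TPM, or 41.2% ± 3.90 of the members' decay TPM. Srsf2-204, Hnrnpa1-203, Hnrnpd-208 and Hnrnpdl-201 are of this kind, with 113, 90, 137 and 126 bases from the stop codon to the last exon junction, and 2 Hnrnpa2b1 transcripts are as well. Such transcripts keep the reading frame to the normal end, although Srsf2-204 and Hnrnpd-208 are annotated without their start. A junction downstream of the principal stop is not limited to the decay biotype. Hnrnpa2b1-202, annotated as protein_coding, has 157 bases from that stop to its last junction and held 18.06, 19.55 and 27.14 TPM. Without Hnrnpu, transcripts with the principal stop held 70.2% ± 3.27 of decay TPM.

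In the second kind the stop differs from the principal one, which held for 42 transcripts of 22 genes. Of these, 18 transcripts of 12 genes have the stop in an exon that no principal transcript contains, with 13.7, 12.7 and 16.9 TPM in all. SR genes supplied 14 of the 18 transcripts, from 8 genes, and in SR genes they took 32.8%, 23.8% and 36.5% of decay TPM, against 2.43%, 2.99% and 3.16% in hnRNPs. The 11 such exons of SR genes had a median length of 276 bases, from 109 to 460, while the 60 internal exons of their principal transcripts had a median of 116 bases. Of the 15 exons over all members, which include overlapping versions in Srsf4 and Tra2b, 10 have a length that is not a multiple of 3. Lengths without regard to the reading frame would give about the same share, and other exons were not compared.

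The following sequences run from the first base of such an exon to its stop codon, in capitals, on the gene's strand, and show how soon each reading frame ends. They are from the GENCODE M21 transcripts and mm10 coordinates.
Srsf3-201: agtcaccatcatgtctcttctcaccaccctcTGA
Srsf6-201: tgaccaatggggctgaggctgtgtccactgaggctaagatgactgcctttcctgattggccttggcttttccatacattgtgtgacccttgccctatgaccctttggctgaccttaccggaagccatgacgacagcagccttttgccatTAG
Srsf4-204: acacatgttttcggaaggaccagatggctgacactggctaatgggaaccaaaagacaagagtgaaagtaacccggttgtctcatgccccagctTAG
Srsf7-203: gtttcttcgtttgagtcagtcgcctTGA
Srsf11-212: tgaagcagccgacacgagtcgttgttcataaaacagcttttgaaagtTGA
Tra2a-202: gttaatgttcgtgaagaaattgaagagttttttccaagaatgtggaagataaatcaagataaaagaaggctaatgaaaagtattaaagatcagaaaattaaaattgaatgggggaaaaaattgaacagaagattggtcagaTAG
Tra2b-206: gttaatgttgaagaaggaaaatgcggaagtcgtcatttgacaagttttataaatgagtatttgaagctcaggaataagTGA
Hnrnpl-213: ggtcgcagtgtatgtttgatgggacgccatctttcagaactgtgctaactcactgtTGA
Hnrnpll-203: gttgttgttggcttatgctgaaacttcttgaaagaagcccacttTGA
Sf3b1-208: gcttctattctgctgctTGA

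The stop of Srsf3-201 falls after 31 bases of a 456-base exon (chr17:29039454-29039909, plus strand), and the transcript codes for 124 residues in place of 164. In Srsf6-201 the exon has 268 bases (chr2:162932815-162933082, plus strand) and leaves 135 of 339 residues. The exons of the paralogs Tra2a (306 bases, chr6:49252803-49253108, minus strand) and Tra2b (276 bases, chr16:22258986-22259261, minus strand) share their first 9 bases and leave 59 of 282 and 38 of 288 residues. The Sf3b1 exon has only 56 bases (chr1:55014869-55014924, minus strand).

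The levels of these transcripts were low, and their spread between libraries differed from gene to gene. Srsf3-201 held 4.20, 2.98 and 2.79 TPM, a share of 20.2%, 17.7% and 12.5%, with replicate 1 highest. Srsf3 encodes the smallest SR protein, and its coding transcript Srsf3-202 held 16.1, 13.7 and 16.0 TPM. Tra2b-206 held 1.62, 1.75 and 2.07 TPM, a share of 9.11% ± 0.543, and Tra2a-202 held 0.25, 0.35 and 1.07 TPM. The deposited interval of Tra2a-202 in replicate 3, 0.760 to 1.37 TPM, lay above those of the other libraries, while the 3 intervals of Tra2b-206 overlapped. Srsf6-201 held 1.01, 1.45 and 2.08 TPM, and Srsf4-204 held 1.05, 0.50 and 1.18 TPM. Hnrnpll-203 held 1.20, 1.08 and 1.90 TPM, which was 25.7% ± 3.94 of this low gene.

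Some of these exons also lie inside transcripts of the retained_intron biotype, not all of which keep the whole intron. Of 12 such exons with a mean of 0.2 TPM or more in decay transcripts, from 10 genes, 8 lie inside an annotated retained_intron transcript, from 7 genes. For 4 of them, in Srsf3, Srsf6, Srsf7 and Sf3b1, such a transcript spans the whole intron of a principal transcript. In all 8, the retained_intron transcripts were highest in replicate 3, whereas the decay transcripts were highest there in 4 of 8. The retained-intron share was also highest in replicate 3 for 30 of the 33 members at 5 TPM or more with such a transcript annotated. The order of the libraries is therefore not particular to these exons. For the Srsf3 exon the retained_intron transcripts held 0.22, 0.08 and 1.77 TPM. For the Srsf6 exon they held 0.29, 0.10 and 1.60 TPM, and for the Sf3b1 exon 0.91, 0.18 and 4.20 TPM, of which Sf3b1-203, with the whole intron, held 0.29, 0.13 and 2.93 TPM. Replicate 3 was the high library each time, as it was for Malat1, with 158, 91.1 and 1343 TPM, and the part of nuclear RNA in this was not tested.

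**Figure D3:**
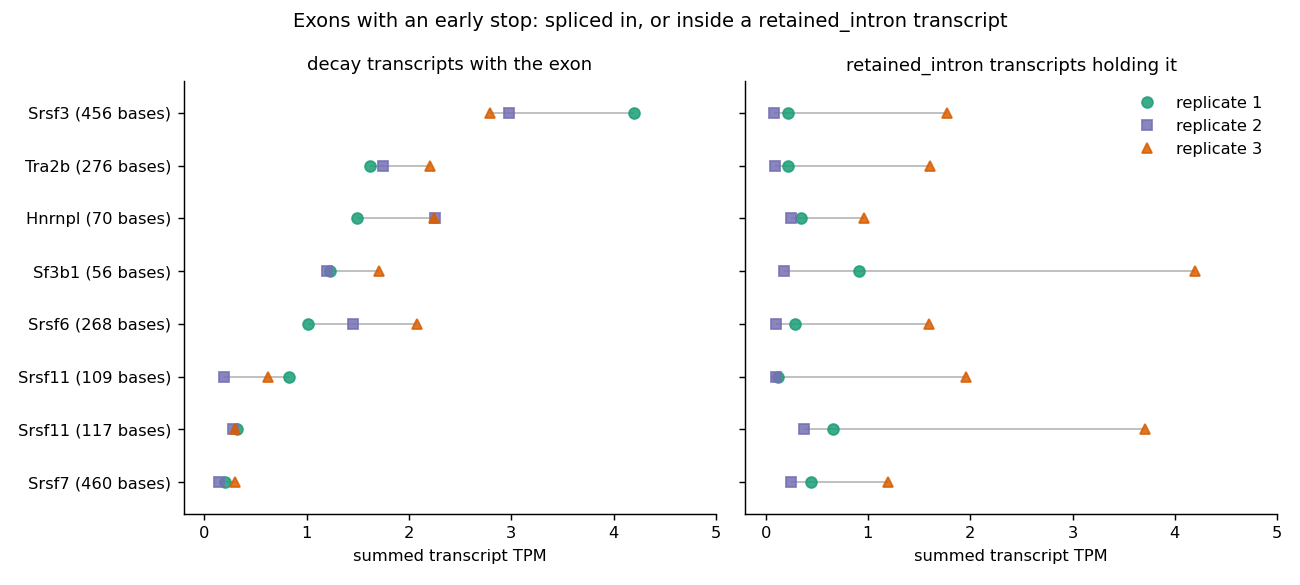
Summed transcript TPM of decay transcripts with an early-stop exon (left) and of retained_intron transcripts that contain the same exon (right), for the 8 exons that have both, with exon length in brackets and 1 symbol a library. On the right replicate 3 is highest for all 8, up to 4.20 TPM for Sf3b1, and on the left it is highest for 4. By retained-intron share replicate 3 was also highest in 30 of the 33 members at 5 TPM or more with such a transcript.

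Retained-intron transcripts of these genes were highest in replicate 3. They held 2.75%, 1.67% and 7.52% of the members' TPM in replicates 1, 2 and 3, against 2.82%, 2.95% and 4.49% over all protein-coding genes. In TPM the members' retained introns summed to 37.0, 21.5 and 124, while their protein_coding transcripts summed to 1149, 1105 and 1322. The SR genes had the largest share of the classes in replicate 3, with 3.24%, 3.65% and 15.6%, followed by U2AF with 5.08%, 2.40% and 10.3%, SF3 with 4.77%, 1.01% and 7.74% and hnRNPs with 2.17%, 1.22% and 5.02%. Without replicate 3 the members' share was 2.21% ± 0.769 (SD, n = 2). Malat1 stood at 158, 91.1 and 1343 TPM and Neat1 at 16.8, 10.4 and 91.4 TPM in the same libraries, and their part in this difference was not tested.

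By gene, 30 of the 42 members at 5 TPM or more had their highest retained-intron share in replicate 3, against 55.9% of protein-coding genes at that level. The share was at least 5 points above both other libraries in 17 of 42, against 16.9% of such protein-coding genes. Of the 33 such members with an annotated retained_intron transcript the same 17 passed, against 25.8% of protein-coding genes that have one. The 17 included 8 of 12 SR genes, 4 of 19 hnRNPs, 2 of 3 U2AF genes and 3 of 8 SF3 genes. For replicate 1 the count was 2, Hnrnpm and Sf3b6, against 0.713%, and for replicate 2 it was 0, against 0.615%. At the level of single transcripts, the deposited TPM interval of replicate 3 lay above the intervals of both other libraries for 54 of 119 retained_intron transcripts, from 24 genes, against 35.7% of those of protein-coding genes. For replicate 1 this held for 1 transcript, Hnrnpm-213, against 0.288%, and for replicate 2 for 0, against 0.0929%. By the mean over libraries, 5 of 42 members had a share of 10% or more, against 10.4% of protein-coding genes. Among genes with such a transcript annotated this was 5 of 33 members, against 15.9%, so this count is close to the background. The median share was 3.18% for members and 0.727% for protein-coding genes at 5 TPM or more. The count count was 3 without replicate 3 and 8 without replicate 2.

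Srsf11, an SR-related protein that binds U2AF, had the highest share, at 12.3%, 20.4% and 59.8%. Its retained introns were spread over several transcripts, such as Srsf11-208 with 0.42, 0.22 and 3.09 TPM and Srsf11-213 with 0.30, 0.15 and 2.08 TPM. Its coding transcripts summed to 8.02, 7.63 and 8.17 TPM and the whole gene to 10.5, 10.2 and 22.6 TPM. In TPM, replicate 3 thus stood apart in the intron-bearing transcripts, while the coding sum was close between libraries. In scaled counts the whole gene held 40.28, 39.17 and 56.15 CPM, a ratio of 1.43. The transcripts were not compared on that scale. Hnrnpll had 5.84%, 3.55% and 32.7%, and Srsf5 had 3.96%, 2.53% and 18.8%. In Srsf5 a single transcript made most of it, Srsf5-212 with 1.14, 0.64 and 9.46 TPM, and its interval in replicate 3 was 8.64 to 9.89 TPM.

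In the other 3 of the 6 highest genes replicate 3 did not stand apart in this table. Hnrnpm had 33.4%, 19.8% and 24.4%, mainly from Hnrnpm-213, a transcript of 591 bases with 11.6, 5.92 and 7.0 TPM, and replicate 1 was highest. Srsf1 had 8.74%, 14.7% and 13.1%, from the 759-base transcript Srsf1-203, with replicate 2 highest, and U2af1l4 had 12.7%, 7.29% and 13.4%, with replicate 3 highest by a small margin. In the read-derived table all 3 were highest in replicate 3, at 17.3% for Hnrnpm, 14.2% for Srsf1 and 15.6% for U2af1l4. For Srsf1-203 the deposited intervals, 0.383 to 3.90, 2.40 to 5.21 and 1.89 to 5.06 TPM, overlapped. Outside this group, Sf3b6 had 14.6%, 0.111% and 7.96% from the 455-base transcript Sf3b6-202, whose intervals also overlapped.

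Of the introns between coding exons whose transcripts were higher in replicate 3, 4 are shown by their edges, chosen after their values were seen, 3 of them because they hold an early-stop exon, with 10 bases of exon in capitals and 20 bases of intron in lower case, so that the splice sites left unused can be read. The introns are those of Srsf5-212 (1229 bases, chr12:80947866-80949094, plus strand), Sf3b1-203 (1813 bases, chr1:55014563-55016375, minus strand), Srsf3-204 (2150 bases, chr17:29038625-29040774, plus strand) and Srsf6-204 (1283 bases, chr2:162932143-162933425, plus strand).
Srsf5-212 intron start: CAGCTGGCAGgtttgttgaaatacagtttt
Srsf5-212 intron end: cataattgtcttgtgttaagGATCTCAAAG
Sf3b1-203 intron start: TTTGCAGATGgtaattctttcccacttttc
Sf3b1-203 intron end: gttgctgttcttttctgcagGAGGGAAGAC
Srsf3-204 intron start: CTCGGCGCAGgtacttgagagagcaccttt
Srsf3-204 intron end: tttactgtttctgcttctagATCCCCAAGA
Srsf6-204 intron start: GGAAGCCGCAgtgagtccttacccccgcgc
Srsf6-204 intron end: actcccttcatgtgataaagGTGGTGGAGG

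All 4 introns begin with gt and end with ag. The introns of Sf3b1-203, Srsf3-204 and Srsf6-204 each contain the early-stop exon of that gene given above, and the Srsf5 intron contains none. Sf3b1-203 held 0.29, 0.13 and 2.93 TPM, Srsf3-204 held 0.22, 0.08 and 1.77 TPM, and Srsf6-204 held 0.29, 0.10 and 1.60 TPM. For each, the deposited interval in replicate 3 lay above those of the other libraries.

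**Figure D4:**
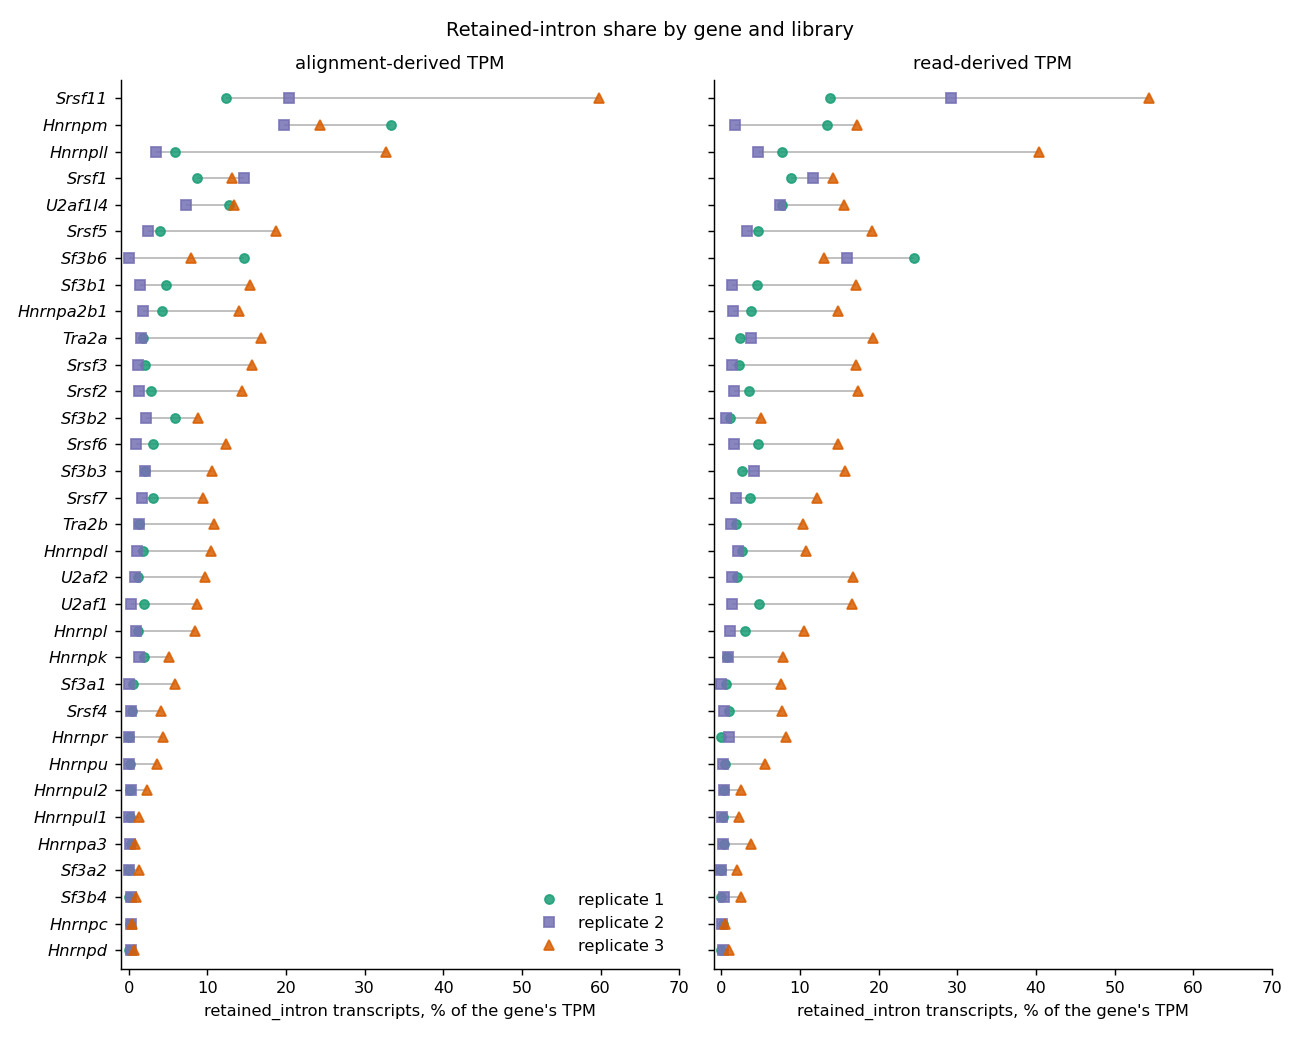
Share of a gene's TPM held by retained_intron transcripts, in percent, for the 33 members with such a transcript and a mean of 5 TPM or more, with 1 symbol a library; left, alignment-derived TPM, and right, read-derived TPM. Replicate 3 lies to the right for most genes in both panels, with Srsf11 at 59.8% on the left and 54.3% on the right, while Hnrnpm and Sf3b6 change order between panels.

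The series holds a second transcript quantification, made from the reads, which served as a check on the shares. It gave decay shares of 11.8%, 12.4% and 10.2% and retained-intron shares of 2.37%, 1.62% and 8.88% for the members, close to those above. Single genes differed more. Srsf6-201 took 10.6%, 14.6% and 16.1% of the alignment-derived and 49.0%, 57.7% and 47.6% of the read-derived TPM, so that this decay transcript led the gene in the second table. Tra2a-202 took 2.68%, 4.51% and 9.53% against 12.6%, 9.43% and 29.0%, and Hnrnpll-203 took 27.0%, 21.3% and 28.9% against 43.3%, 46.1% and 36.2%. The retained-intron share of Hnrnpm was 33.4%, 19.8% and 24.4% in the first table and 13.5%, 1.76% and 17.3% in the second. The leading transcript differed between the quantifications for 7 of 42 members, against 8.68% of protein-coding genes at 5 TPM or more. These were Srsf1, Srsf6, Srsf11, Hnrnpa2b1, Hnrnpd, Hnrnpl and Hnrnpll.

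The leading transcript was not protein_coding in 4 of 42 members, Srsf2, Hnrnpd, Hnrnpdl and Hnrnpu, against 4.55% of protein-coding genes. All 4 led with a decay transcript. In the read-derived table the genes were Srsf2, Srsf6, Hnrnpdl, Hnrnpll and Hnrnpu, so 3 genes were common to both. On expected counts in place of TPM only 1 member, Hnrnpu, had such a leader.

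At the gene level the read-derived TPM was a median 39.0% of the alignment-derived TPM over 44 members, and 38.9% over 6174 protein-coding genes. Hnrnpa3 was the lowest at 16.0%, with read-derived levels of 18.7, 14.9 and 10.4 TPM, and the next lowest was Hnrnpa1 at 33.1%. Of the sequence stretches of 31 bases in Hnrnpa3 transcripts, 28.1% also occur in transcripts of other genes, mostly in the pseudogene Gm5641, which held 6.58, 7.44 and 6.76 TPM by alignment and 23.1, 27.1 and 17.99 TPM in the read-derived table. The level of Hnrnpa3 is therefore uncertain. In 12 members 20% or more of these stretches occur in other genes, up to 66.2% for Hnrnpf, 51.2% for Sf3b4 and 49.6% for U2af1l4, while Srsf6, Srsf9 and Hnrnpa0 share none.

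**Figure D5:**
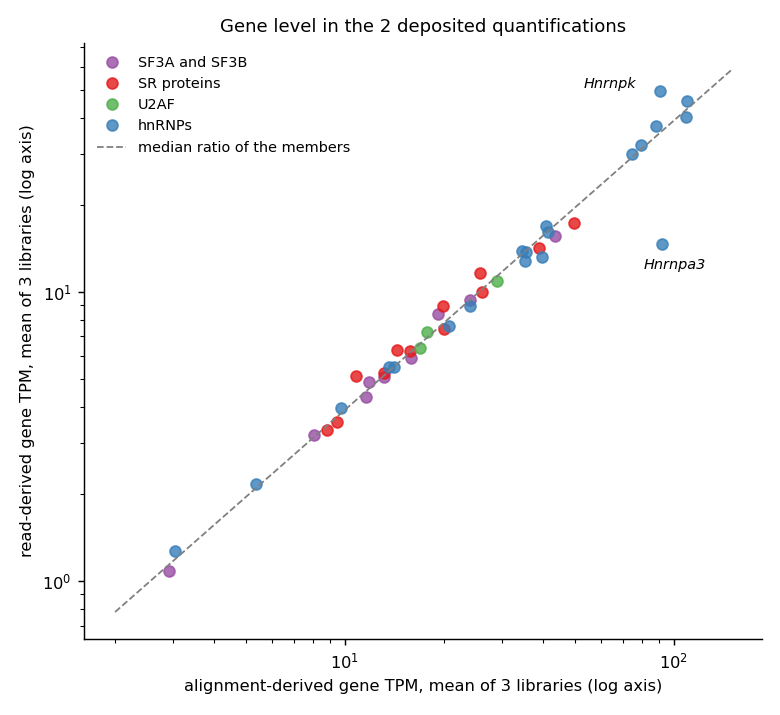
Mean gene TPM over 3 libraries in the alignment-derived table (log axis) against the read-derived table (log axis) for the 44 detected members, coloured by class, with a dashed line at the members' median ratio. Hnrnpa3 lies below the line at 16.0% of its alignment-derived TPM, against a median of 39.0%.

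Genes that work with these factors were present as well, and are given by lists chosen with the results of these data known. All 22 proteins of the small nuclear ribonucleoproteins, all 12 SR kinases and coactivators and all 16 decay and exon junction factors stood at 1 TPM or more in every library, as did 27 of 37 other RNA-binding regulators of splicing. The list medians were 12.9 ± 1.65, 10.3 ± 2.69, 9.53 ± 1.25 and 16.1 ± 1.60 TPM, all below the 20.5 TPM of the members. Eif4a3, the helicase that anchors the exon junction complex, led the decay list with 38.0, 28.2 and 36.0 TPM, and Pcbp2, a poly(C)-binding protein, led the regulators with 180, 161 and 158 TPM. Between libraries 1 of the 81 tested genes of these lists was called, against 16.2% of all genes tested and 8.09% of protein-coding genes tested. It was Ptbp2, with 2.01, 1.54 and 3.89 TPM and replicate 3 highest (chi-square test, adjusted p = 5.245e-31).

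The transcript classes of these lists were as follows. The SR kinases and coactivators, which phosphorylate or bridge SR proteins, had retained-intron shares of 4.52%, 4.38% and 16.9% and decay shares of 10.8%, 8.86% and 9.57%. The other regulators had retained-intron shares of 1.99%, 1.54% and 8.43% and decay shares of 3.87%, 3.96% and 4.10%. The small nuclear ribonucleoproteins had retained-intron shares of 5.78%, 4.64% and 8.31% and decay shares of 0.648%, 0.926% and 0.604%. The retained-intron share was highest in replicate 3 in these lists, as in the members. The decay and exon junction factors had retained-intron shares of 0.957%, 1.81% and 5.90%, also highest in replicate 3, and decay shares of 0.451%, 0.958% and 0.376%.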

How the data were processed

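The libraries measure ribosomal RNA-depleted RNA, with 3 libraries in 1 group. The deposited README names mm10 and annotation M21 for tables made from alignments, and a second transcript table made from the reads. The aligner, the counting programs and their use of strand were not given in the sources used here. Per the file headers, expected counts are the authors' estimated reads per gene or transcript, rounded here for tests. The deposited TPM, posterior mean TPM and FPKM were normalised by the authors for length and library total, and TPM interval bounds of unstated level come with them. Shares are sums of transcript TPM by GENCODE M21 biotype, and principal transcripts carry the APPRIS principal tag. Reads shared by transcripts are divided by a model, so shares carry that uncertainty.

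Counts were scaled by TMM (edgeR 4.0.16, R 4.3.3). The chi-square test took genes averaging at least 10 counts, with 0.5 counts added for ratios. On simulated counts for 13636 genes it called 100% of genes changed 4-fold, 1% of those changed 1.5-fold and 1 of 13436 unchanged genes. The simulation held counting error only, so these figures give no rate of false calls for the real libraries. Limits for a count of 0 use 3 counts and cover counting error only. Python 3.11.15, pandas 2.3.3, numpy 2.4.6, scipy 1.17.1 and matplotlib 3.10.9 were used. The members, lists, tests and naming rule were chosen with earlier results of these data known. By that rule every library's value is given for the 3 highest and lowest 2 members of each class, the 6 highest retained-intron and decay shares and members not led by a protein_coding transcript. Other members and transcripts were named after their values were seen. Alternatives were other units, thresholds, filters and scalings (DESeq2 1.42.0), and leaving out each replicate.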

Additional observations from a re-analysis of the deposited data

How the results depend on the processing

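Of 82 alternative values, 60 stayed within the spread between libraries or within 1.5 times of the count. For the retained-intron share, 3.98% with an SD of 3.11, this criterion was loose. All 9 of its alternatives, from 2.21% to 5.14%, stayed within that spread. The number of members at 1 TPM lay between 35 and 44 under every alternative, 35 being the count at 10 TPM. The median member stood at 8.69 in read-derived TPM, 33.9 in FPKM and 68.5 in TPM rescaled to protein-coding genes. Called differences between libraries numbered 1 with totals alone (16.6% of all genes tested), 1 with a ratio of 1.5 (27.2%), 1 with protein-coding genes only (8.21% of those) and 37 at any ratio (75.6%), and 0 with each replicate left out in turn. The decay share was 11.5% from read-derived TPM, 9.25% from expected counts, 0.597% as the mean over libraries of the median member, and 6.68% and 5.25% without Hnrnpu and without Hnrnpu and Srsf2, which were chosen after seeing the data; leaving out a replicate gave 10.4% to 11.1%. Members with a retained-intron share of 10% numbered 2 at 20 TPM or more, 14 at a 5% share, 2 at a 20% share and 3 to 8 with a replicate left out. Members with a decay share of 10% numbered 5 at 20 TPM or more and 15 at a 5% share. Members led by a transcript that is not protein_coding numbered 1 on expected counts. Members with higher retained introns in replicate 3 numbered 7 at 10 points and 7 at 20 TPM or more. The cause of these changes was not tested beyond the narrower or wider criteria themselves. No paired analysis was possible because the series has a single group.

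Depth limits little at gene level, since 44 members had enough counts to be tested. Transcript values are limited by shared bases: Srsf2-204, for example, has 0 bases outside the exons of principal transcripts, and its share rests on junctions and ends alone. With 3 libraries of 1 group no effect of treatment, fraction or time can be read.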
